A study of Homo sapiens with 12 samples.

Results

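Skeletal muscle receives the motor nerve through the nicotinic acetylcholine receptor and the proteins that gather it under the nerve ending. The 9 genes described here make up this system, out of 65975 gene identifiers in the expression table. They are the receptor subunit genes CHRNA1 (alpha), CHRNB1 (beta), CHRND (delta), CHRNG (gamma) and CHRNE (epsilon), and the clustering genes MUSK, RAPSN, LRP4 and DOK7. All 9 were picked by name, with earlier results of these data known, and all were found. CHRNA1 was selected on its measured values, because its change after KDM3A knockdown differs between the cell lines, so its values are given as a description with no test. The other 8 genes were tested wherever their level allowed it. Because of how the members were picked, their counts beside the shares of all genes are a description.

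RNA was sequenced from 2 human rhabdomyosarcoma lines, RD (fusion-negative, FN-RMS) and Rh30 (fusion-positive, FP-RMS, carrying a PAX3-FOXO1 fusion), to learn which genes KDM3A controls in each subtype. KDM3A is a histone demethylase. Each line carried either a non-targeting shRNA (Scramble) or an shRNA against KDM3A (KDM3A-sh2). This gave 4 groups of 3 libraries. Nothing in the labels or methods ties the 3 libraries of a group to independent cultures. The deposited column names of the Rh30 Scramble libraries all end in 1, whereas their titles number them as replicates 1 to 3. The numbers of the titles are used here. The p-values therefore measure only the spread between these libraries, which may be technical. All 4 groups, controls included, had been infected with lentivirus and selected with puromycin at 1 µg/ml. Each subtype stands here as 1 line and the knockdown as 1 shRNA. RD cells grew in DMEM and Rh30 cells in RPMI, so line and medium cannot be told apart. Levels are in FPKM, a count of fragments scaled by transcript length and by the mapped fragments of the library, which can be compared between genes because they are per length. The summed FPKM of a library ran from 1198300 to 1379197. FPKM do not hold the read number. The relative depth estimated from the smallest steps between values ran from 0.867 to 1.174, and in both lines the KDM3A-sh2 libraries had the lower values.

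As background, the receptor of fetal or denervated muscle contains the gamma subunit, and the epsilon subunit takes its place in innervated adult muscle. Agrin from the nerve binds LRP4, which switches on the receptor kinase MuSK with the help of the adaptor Dok-7, and rapsyn then holds the receptors in clusters. The myogenic factors MyoD and myogenin turn on several of the subunit genes through E-boxes, short DNA words of the form CANNTG, near their start sites.

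RefSeq promoter windows (250 bases before to 50 after a start, GRCh38.p14) were at hand for 6 of the 9 genes. Parts of the windows of CHRNA1, MUSK, CHRND and CHRNB1 are shown, since the report turns on these 4 genes, with the E-boxes in capitals. CHRNA1 lies on chromosome 2 and its sequence, chr2:174764473-174764632 on the minus strand, overlaps no annotated exon although it falls inside the longest annotated span of the gene. MUSK is shown at chr9:110668641-110668770 (plus strand), upstream of every annotated exon. CHRND is shown at chr2:232526121-232526150 (plus strand) and CHRNB1 at chr17:7445026-7445055 (plus strand), each overlapping 1 exon annotated by GENCODE 29, of CHRND itself and of the neighbouring AC113189.4 respectively.
CHRNA1: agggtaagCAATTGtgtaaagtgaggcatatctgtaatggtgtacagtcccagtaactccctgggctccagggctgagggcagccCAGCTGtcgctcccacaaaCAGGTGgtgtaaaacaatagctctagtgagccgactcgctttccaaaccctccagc
MUSK: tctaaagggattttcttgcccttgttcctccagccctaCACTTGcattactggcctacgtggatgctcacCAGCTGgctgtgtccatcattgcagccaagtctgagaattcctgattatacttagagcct
CHRND: ctcctcccccaaCACCTGtcccctctcccg
CHRNB1: tcctccagcaaCAGGTGcacattcccgggc

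The letters CANNTG read the same on both strands as a pattern, so 1 search covers both. In the whole window CHRNA1 had 3 matches, MUSK 3, CHRNB1 4, CHRND 2 and CHRNE 4. DOK7 has a pair of windows, with 1 match in the first and 0 in the second. Such words are frequent: 68.7% of 35116 promoter windows of the same length held at least 1, 36.4% at least 2 and 15.3% at least 3. The form CAGCTG, which is part of the same search, was found in 17.9% of windows, among them those of CHRNA1, MUSK and CHRNE. The N-box core CCGGAA, a word bound by ETS factors and searched on both strands, was found in 17.2% of windows, among them those of CHRND and CHRNE. A match is a description of the letters and does not show a factor bound there.

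KDM3A itself fell in both lines. Its mean was 33.5 FPKM in RD Scramble and 12.2 FPKM in RD KDM3A-sh2, a log2 change of -1.39 (SE 0.08, adjusted p = 5e-05, limma with Benjamini-Hochberg adjustment, as for every adjusted p given here). In Rh30 it went from 29.7 to 14.1 FPKM, a log2 change of -1.02 (SE 0.08, adjusted p = 0.000348). The reduction was smaller in Rh30 by 0.37 on the log2 scale (SE 0.12, adjusted p = 0.0388).

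Both lines held muscle lineage RNA. Of 12 markers of that lineage, DES, the muscle intermediate filament, led in RD, where Scramble averaged 796.1 FPKM and KDM3A-sh2 931.6 FPKM. In Rh30 DES had 403.8 and 370.6 FPKM, below MYOD1 and MYOG. MYF5 and MYF6, other myogenic regulators, stayed under 1 FPKM in all libraries. Of 5 Schwann cell markers only ERBB3 was abundant (mean 38.0 FPKM), a receptor that muscle cells also make, and SOX10 was at or near 0. Of 7 neuron markers SNAP25 led in RD (5.61 and 6.68 FPKM, in the same order) and MNX1 in Rh30 (4.05 and 3.04 FPKM), where ISL1 had 2.37 and 1.99 FPKM. CHAT was listed at 0 in all libraries. The endothelial markers were led by CLDN5 in RD (4.18 and 3.70 FPKM) and by TEK in Rh30 (2.71 and 3.04 FPKM), and CD14 led the immune markers at 0.602 FPKM over all libraries. Of 5 epithelial markers KRT18 had 43.7 and 41.7 FPKM in RD and 4.66 and 3.49 FPKM in Rh30, where EPCAM had 4.63 and 6.03 FPKM. CLDN4 had 10.9 and 8.65 FPKM in RD and 0.703 and 0.122 FPKM in Rh30, while CDH1 and KRT5 were near 0. Of the 2 epithelial markers tested in each line, 0 rose and 1 fell. Those that fell were CLDN4 in RD (log2 change -0.31, adjusted p = 0.00814 by limma) and KRT18 in Rh30 (-0.33, adjusted p = 0.0371). Over all genes tested, 19.5% fell in RD and 13.2% in Rh30.

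CHRND, CHRNB1 and MUSK rose in RD and fell in Rh30, and the difference between lines passed the test for each of the 3. Among the 8 genes other than CHRNA1, 7 reached the level needed for a test. In RD, 4 of these 7 rose (CHRNB1, CHRND, CHRNG and MUSK) and 0 fell, while 21.6% of all 17988 genes tested rose and 19.5% fell. In Rh30, 1 rose (RAPSN) and 3 fell (CHRNB1, CHRND and MUSK), while 15.3% of 17803 genes rose and 13.2% fell. With every library rescaled to the same sum, the genes that rose and fell numbered 4251 and 2995 in RD (3879 and 3511 as deposited) and 2312 and 2601 in Rh30 (2719 and 2347 as deposited), and the same members were called. The 3 genes called in both lines are set beside 2.00% of the 15970 genes tested in both lines that were called higher in RD and lower in Rh30. In these bulk samples, fewer cells that express a gene and less of its RNA per cell cannot be told apart. Where groups are said not to overlap, the share of all genes without overlap was not counted. Such statements describe the values only.

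**Figure D1:**
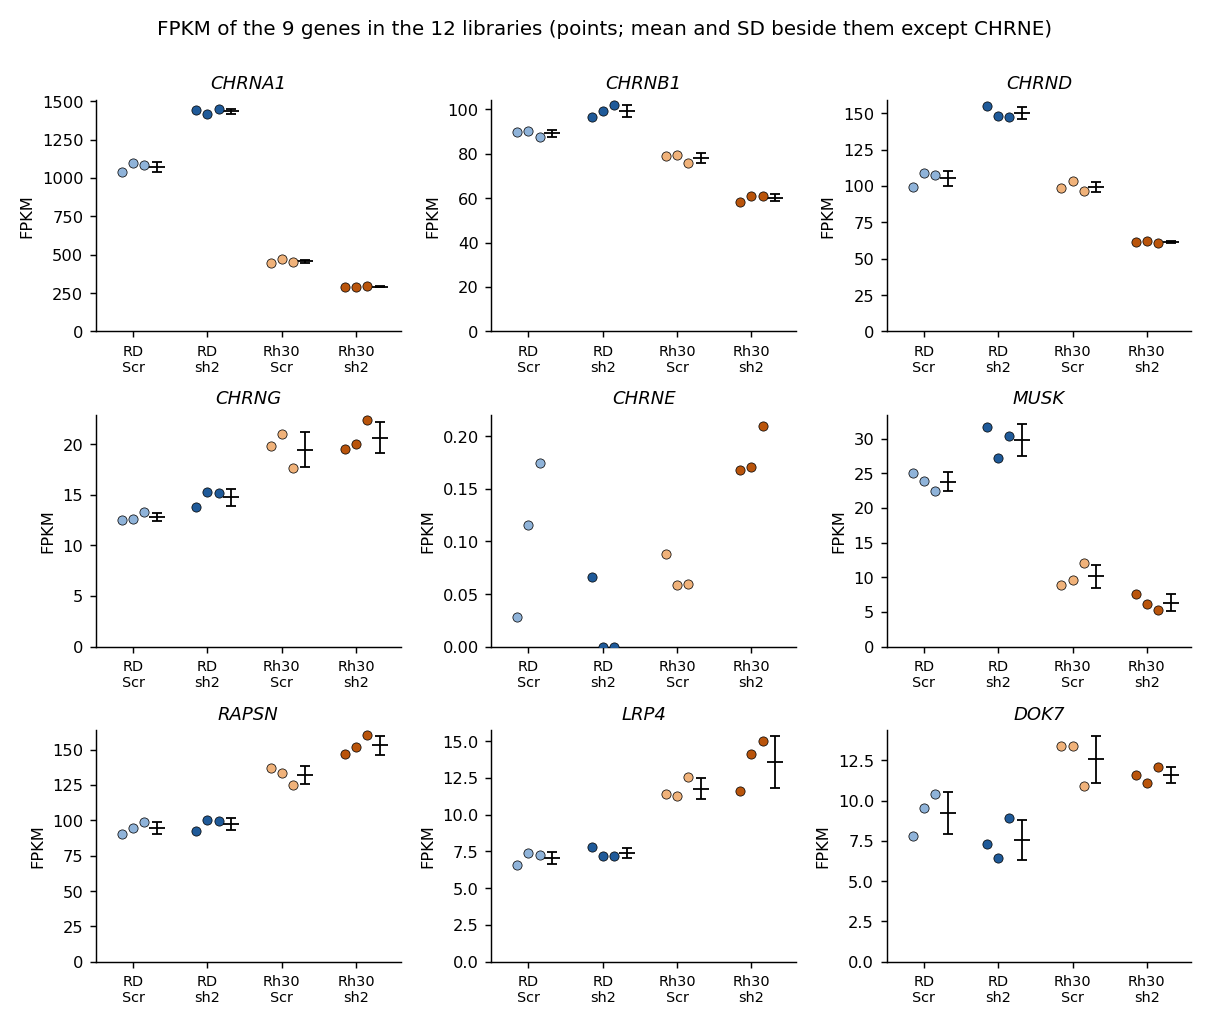
FPKM of the 9 genes in each library (points, 3 per group) with the group mean and SD beside them, for RD and Rh30 with Scramble (Scr) or KDM3A-sh2 (sh2). Every axis starts at 0. CHRNA1, CHRNB1, CHRND and MUSK sit higher with KDM3A-sh2 in RD and lower in Rh30, with no overlap between the groups of a line. How many of all genes show the same was not counted. No mean is drawn for CHRNE, which is listed at 0 in part of the libraries.

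CHRNA1 encodes the alpha subunit, which carries most of the acetylcholine binding site. It was by far the most abundant of the 9 genes in every group. In RD Scramble the 3 libraries had 1037.3, 1099.0 and 1087.0 FPKM, and with KDM3A-sh2 they had 1441.1, 1416.9 and 1448.8 FPKM. In Rh30 Scramble they had 448.8, 470.3 and 449.8 FPKM, and with KDM3A-sh2 they had 290.8, 290.9 and 294.1 FPKM. The groups did not overlap in either line, and the order of the 4 groups was RD KDM3A-sh2, RD Scramble, Rh30 Scramble and Rh30 KDM3A-sh2. The mean was 1074.4 ± 32.7 (SD, n = 3) in RD Scramble and 1435.6 ± 16.6 in RD KDM3A-sh2, a change of 33.6%. In Rh30 it was 456.3 ± 12.1 with Scramble and 291.9 ± 1.88 with KDM3A-sh2, a change of -36.0%. On the log2(FPKM + 1) scale these changes were 0.42 and -0.64, which differ by -1.06. CHRNA1 ranked 117 among all genes in RD Scramble and 69 in RD KDM3A-sh2, and 400 and 630 in the corresponding Rh30 groups. The gene spans chr2:174747592-174787935 on the minus strand (GRCh38, GENCODE 29).

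CHRND, the delta subunit gene (chr2:232525993-232536667, plus strand), showed the largest difference between lines among the tested members. The RD Scramble libraries had 99.4, 108.7 and 107.2 FPKM and the RD KDM3A-sh2 libraries 154.6, 147.9 and 147.7 FPKM. In Rh30 the level was 98.3, 103.3 and 96.7 FPKM with Scramble and 61.4, 61.9 and 60.6 FPKM with KDM3A-sh2. All knockdown libraries lay above the controls in RD and all lay below them in Rh30. The log2 change was 0.51 in RD (SE 0.04, adjusted p = 0.000224), a mean 1.43 times that of Scramble. In Rh30 it was -0.69 (SE 0.04, adjusted p = 0.000139), a mean 0.62 times that of Scramble. The lines differed by -1.20 (SE 0.06, adjusted p = 4.65e-07). With Scramble the 2 lines had 105.1 ± 4.99 and 99.4 ± 3.40 FPKM, a log2 difference of -0.08 with a 95% interval of -0.19 to 0.04. Rescaled to the same sum, this difference was -0.19 and passed the test (adjusted p = 0.00577).

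CHRNB1 encodes the beta subunit, through which rapsyn binds the receptor (chr17:7445061-7457707, plus strand). Its levels were 89.9, 90.0 and 87.3 FPKM in RD Scramble and 96.4, 99.2 and 102.1 FPKM in RD KDM3A-sh2. They were 79.0, 79.5 and 75.6 FPKM in Rh30 Scramble and 58.3, 61.0 and 61.0 FPKM in Rh30 KDM3A-sh2. Again no knockdown library overlapped its controls, but the shift in RD was small. The log2 change was 0.15 in RD (SE 0.04, adjusted p = 0.0149) and -0.37 in Rh30 (SE 0.04, adjusted p = 0.00129). The rise in RD did not pass with the replicate number as a block (adjusted p = 0.0503). The change in Rh30 minus that in RD was -0.52 (SE 0.05, adjusted p = 3.14e-05).

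CHRNG, the fetal gamma subunit gene (chr2:232539727-232546403, plus strand), starts 3060 bases past the end of CHRND and did not share its fall in Rh30. In Rh30 it had 19.8, 21.0 and 17.6 FPKM with Scramble and 19.5, 20.0 and 22.4 FPKM with KDM3A-sh2, and these groups overlapped. The log2 change there was 0.08 with a 95% interval of -0.12 to 0.28 (adjusted p = 0.510). In RD it had 12.5, 12.6 and 13.3 FPKM with Scramble and 13.8, 15.3 and 15.2 FPKM with KDM3A-sh2, with no overlap. The change in RD, 0.19 (SE 0.06), was just past the threshold with an adjusted p of 0.0493, and it was not past it in 8 of 14 other settings on the log2 scale. Between lines the change differed by -0.11 with an interval of -0.34 to 0.12 (adjusted p = 0.470).

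CHRNE, the adult epsilon subunit gene (chr17:4897774-4934438, minus strand), was left out of the fit because its mean stayed under 1 FPKM. In RD it was listed at 0.0286, 0.116 and 0.175 FPKM with Scramble and at 0.0664, 0 and 0 FPKM with KDM3A-sh2. In Rh30 it was listed at 0.0881, 0.0583 and 0.0593 FPKM with Scramble and at 0.168, 0.171 and 0.210 FPKM with KDM3A-sh2. The Rh30 groups did not overlap. Without a filter on low values limma called it higher in Rh30, by 0.15 on the log2 scale (SE 0.03, adjusted p = 0.0308), at levels near 0. In that fit its change in RD was -0.11 (adjusted p = 0.269), and the lines differed by 0.26 (adjusted p = 0.0276). In every library gamma was far above epsilon.

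Relative to CHRND, CHRNG RNA was higher with the knockdown in Rh30. The ratio of CHRNG to CHRND within a library, which no scaling of the library can change, was 0.202, 0.203 and 0.182 in Rh30 Scramble and 0.318, 0.323 and 0.370 in Rh30 KDM3A-sh2. In RD the ratio was 0.126, 0.116 and 0.124 with Scramble and 0.0892, 0.103 and 0.103 with KDM3A-sh2. The ratio therefore lay higher with the knockdown in every Rh30 library and lower in every RD library. The ratio is made from the members themselves and is given as a description with no test. As a share of the summed FPKM of the 5 subunit genes, CHRNG went from 2.98% ± 0.197 (SD, n = 3) to 4.75% ± 0.317 in Rh30 and from 0.997% ± 0.0316 to 0.869% ± 0.0542 in RD. That sum is mostly CHRNA1, at 83.8% in RD Scramble and 69.9% in Rh30 Scramble. The share therefore largely restates the change for which CHRNA1 was selected, and nothing is concluded from it. The sum itself was 1281.5 ± 37.5 FPKM in RD Scramble, 1699.7 ± 18.0 FPKM in RD KDM3A-sh2, 653.3 ± 18.2 FPKM in Rh30 Scramble and 434.2 ± 4.05 FPKM in Rh30 KDM3A-sh2.

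**Figure D2:**
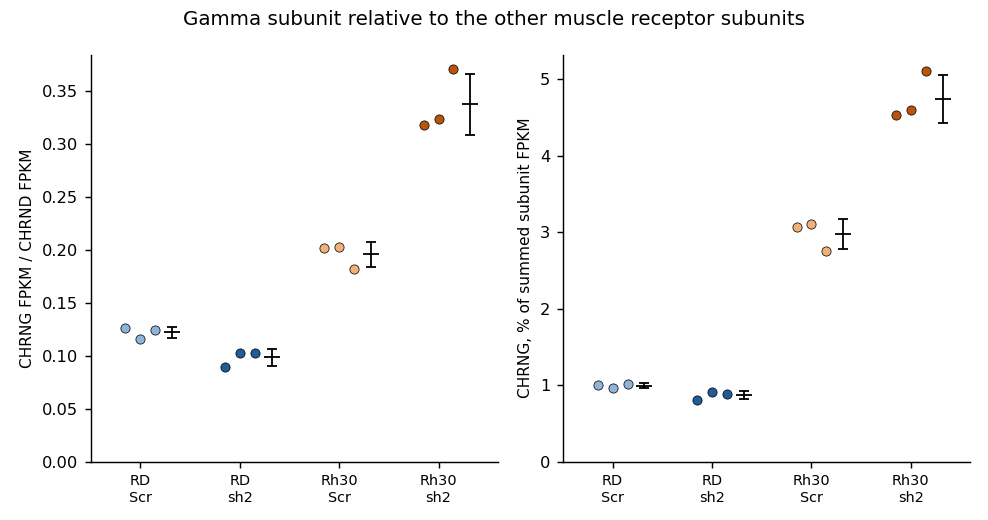
CHRNG relative to the other muscle receptor subunits in each library (points, 3 per group) with the group mean and SD. The left axis is the ratio of CHRNG to CHRND FPKM, the right axis the percent of CHRNG in the summed FPKM of the 5 subunit genes. The Rh30 KDM3A-sh2 libraries lie from 0.318 to 0.370 in the ratio, above the 0.182 to 0.203 of Rh30 Scramble.

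MUSK encodes the receptor tyrosine kinase that starts the clustering of receptors (chr9:110668771-110801620, plus strand). Its libraries had 25.1, 23.9 and 22.4 FPKM in RD Scramble and 31.7, 27.2 and 30.4 FPKM in RD KDM3A-sh2. In Rh30 they had 8.84, 9.59 and 12.0 FPKM with Scramble and 7.63, 6.19 and 5.21 FPKM with KDM3A-sh2. The groups of each line did not overlap. The log2 change was 0.31 in RD (SE 0.07, adjusted p = 0.0126) and -0.60 in Rh30 (SE 0.15, adjusted p = 0.0269). Between lines the change differed by -0.91 (SE 0.18, adjusted p = 0.00332). The fall in Rh30 was less firm than the others, and did not pass in 6 of 14 other settings on the log2 scale, among them those without Scramble replicate 2 or 3 or KDM3A-sh2 replicate 2 or 3.

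RAPSN encodes rapsyn, the scaffold under the receptor (chr11:47437757-47449178, minus strand). Its levels were 90.2, 94.9 and 98.5 FPKM in RD Scramble and 92.5, 100.1 and 99.7 FPKM in RD KDM3A-sh2, which overlap. They were 137.3, 133.7 and 124.8 FPKM in Rh30 Scramble and 146.9, 151.9 and 160.4 FPKM in Rh30 KDM3A-sh2, which do not. In Rh30, where CHRND and CHRNB1 fell, RAPSN rose by a log2 change of 0.21 (SE 0.05, adjusted p = 0.0230). That call was lost in 7 of 14 other settings on the log2 scale, among them those without Scramble replicate 2 or 3 or KDM3A-sh2 replicate 2 or 3. In RD the change was 0.04 with a 95% interval of -0.07 to 0.16 (adjusted p = 0.525). Between lines the change differed by 0.17 (95% interval 0.01 to 0.33), which did not pass after adjustment (adjusted p = 0.111).

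LRP4 and DOK7 did not pass the test in either line. LRP4, the agrin receptor (chr11:46856868-46918642, minus strand), ran from 6.57 to 7.37 FPKM in RD Scramble and from 7.17 to 7.82 FPKM in RD KDM3A-sh2. In Rh30 it ran from 11.3 to 12.6 FPKM with Scramble and from 11.6 to 15.0 FPKM with KDM3A-sh2, so the groups overlapped in both lines. Its log2 change was 0.06 in RD (95% interval -0.12 to 0.24) and 0.19 in Rh30 (95% interval -0.05 to 0.43). DOK7, the cytoplasmic activator of MuSK (chr4:3463311-3501473, plus strand), ran from 7.83 to 10.4 FPKM in RD Scramble and from 6.47 to 8.92 FPKM in RD KDM3A-sh2. In Rh30 it ran from 10.9 to 13.4 FPKM with Scramble and from 11.1 to 12.1 FPKM with KDM3A-sh2. The log2 change of DOK7 was -0.27 in RD (95% interval -0.59 to 0.06) and -0.10 in Rh30 (95% interval -0.32 to 0.12). Each of these intervals reaches beyond the size of the CHRNB1 change in RD.

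**Figure D3:**
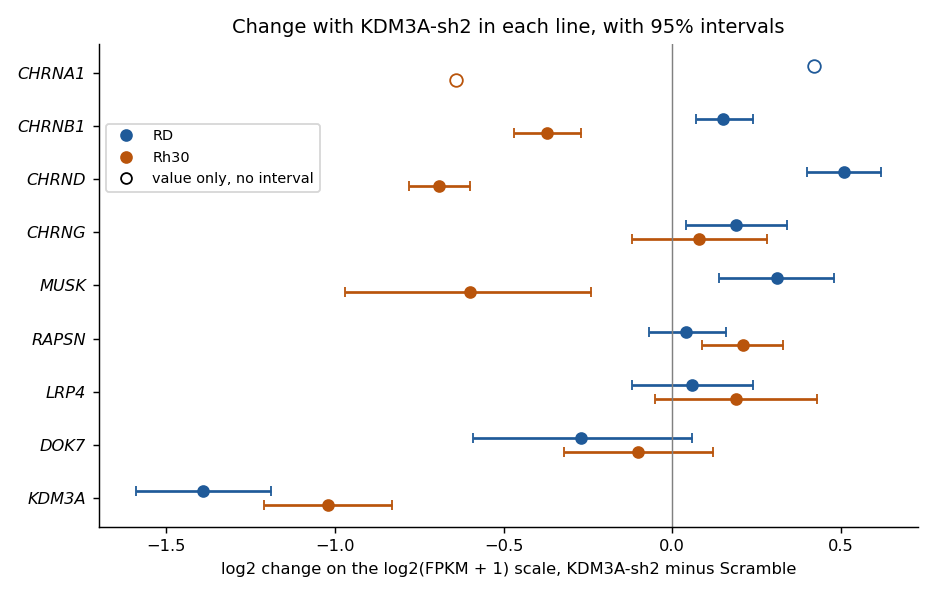
Log2 change on the log2(FPKM + 1) scale, KDM3A-sh2 minus Scramble, for 8 of the 9 genes and KDM3A in RD (blue) and Rh30 (orange), with 95% intervals from limma. CHRNE was too low to test, and CHRNA1 has open symbols and no interval because it was selected on these values. The intervals of CHRNB1, CHRND and MUSK lie above 0 in RD and below 0 in Rh30.

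The difference between lines passed the test for 3 of the 7 tested members (CHRNB1, CHRND and MUSK), each with the more negative change in Rh30, and for 0 with the more positive one. Of all 18517 genes tested for this difference, 13.4% had the more negative and 14.4% the more positive change in Rh30. These shares depend on scaling: 2665 genes were more positive and 2486 more negative as deposited, against 2094 and 3051 when every library was rescaled to the same sum. CHRNB1, CHRND and MUSK were called under either scaling. The comparisons of the 2 lines with Scramble use the same controls as the knockdown comparisons.

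Many genes differed between the lines without knockdown, and the members went both ways as well, which is not read as particular to them. With Scramble, 4 of the 7 tested members were higher in Rh30 (CHRNG, RAPSN, LRP4 and DOK7) and 2 were lower (CHRNB1 and MUSK), while 35.0% of 18357 genes were higher in Rh30 and 39.6% lower. These were 6418 and 7265 genes, against 5628 and 8110 when rescaled to the same sum. Among the tested members MUSK had the largest difference, 23.8 ± 1.32 FPKM (SD, n = 3) in RD against 10.1 ± 1.64 FPKM in Rh30, a log2 change of -1.16 (SE 0.11, adjusted p = 5.93e-05). CHRNB1 was lower by a smaller margin, -0.19 (SE 0.04, adjusted p = 0.00341). Among the genes higher in Rh30, the log2 change was 0.66 for LRP4 (SE 0.08, adjusted p = 0.000173) and 0.57 for CHRNG (SE 0.08, adjusted p = 0.000374). It was 0.48 for RAPSN (SE 0.05, adjusted p = 0.000133) and 0.40 for DOK7 (SE 0.12, adjusted p = 0.0213). The DOK7 call was lost in 4 of 14 other settings on the log2 scale: rescaled to the same sum (0.30) and without Rh30 Scramble replicate 1 or 2 or RD Scramble replicate 1. Rescaled to the same sum, 3 members were higher in Rh30 and 3 lower, CHRND among the latter. CHRNA1 was lower in Rh30 by value, -1.23 on the log2 scale.

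Genes beside and over the members were examined as well. CHN1, which encodes the signalling protein chimaerin, lies 11428 bases from CHRNA1 (chr2:174799363-175005369, minus strand). It was lower with the knockdown in Rh30, with 114.0, 116.7 and 118.1 FPKM in Scramble against 76.0, 77.1 and 75.5 FPKM in KDM3A-sh2, a log2 change of -0.60 (adjusted p = 0.000124). In RD it overlapped between groups, with 262.5, 240.3 and 233.3 FPKM against 234.3, 238.1 and 232.7 FPKM (log2 change -0.06, adjusted p = 0.352). The lines differed by -0.54 (adjusted p = 5.96e-05). On the other side of CHRNA1, at 27274 bases, the processed pseudogene H3F3AP4 had log2 changes of -0.33 in RD and -0.20 in Rh30 (adjusted p = 0.000242 and 0.00503), although its reads may come from near-identical copies elsewhere.

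Around the CHRND and CHRNG pair, PRSS56, a protease gene that ends 277 bases before CHRND, had a log2 change of -0.16 in RD (adjusted p = 0.479) and was under 1 FPKM in Rh30. TIGD1, 1567 bases past CHRNG, rose in both lines, by 0.43 in RD and 0.52 in Rh30 (adjusted p = 0.00137 and 0.00256). The genes that overlap CHRNA1, CHRNB1 and MUSK were low: AC010894.3 and AC113189.4 stayed under 1 FPKM and AL513328.1 was listed at 0. LRP4-AS1, antisense to LRP4, reached 1.11 FPKM. MINK1, which overlaps CHRNE at its 3′ end, had 25.3 ± 2.08 FPKM (SD, n = 3) in RD Scramble and 14.2 ± 1.14 FPKM in Rh30 Scramble, far above CHRNE itself, and C17orf107 and GP1BA, which also overlap CHRNE, stayed under 1 FPKM. The library kit keeps the strand of the RNA, but the strand setting of the counting is not given in the sources used here.

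The genes whose pattern over the 12 libraries was most like that of CHRNA1, among 11016 genes that averaged 10 FPKM or more, were TIMP2, PTRF, ST3GAL5, EXT1 and CREB3L1. TIMP2 is a metalloproteinase inhibitor, PTRF a coat protein of caveolae, ST3GAL5 the synthase of ganglioside GM3, EXT1 a heparan sulfate polymerase and CREB3L1 a transcription factor of the endoplasmic reticulum. Pearson's r of log2(FPKM + 1) was 0.999 for TIMP2, PTRF and ST3GAL5 and 0.998 for EXT1 and CREB3L1. All points come from the same 12 libraries, which form 4 tight groups, so r mostly describes the order and spacing of 4 group means. TIMP2, for instance, had means of 303.3 and 364.5 FPKM in RD and of 162.1 and 118.5 FPKM in Rh30, with Scramble and KDM3A-sh2 in turn. CREB3L1 ran from 36.9 FPKM in RD KDM3A-sh2 to 0.935 FPKM in Rh30 KDM3A-sh2. Among the members r was 0.985 for MUSK, 0.957 for CHRNB1 and 0.906 for CHRND, and it was -0.959 for RAPSN, -0.945 for LRP4, -0.867 for CHRNG, -0.797 for DOK7 and, at levels near 0, -0.633 for CHRNE.

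Beyond the members, 16 genes of agrin and MuSK signalling were examined, all of them tested. In RD 7 rose and 1 fell, with a median log2 change of 0.06, while 21.6% of all genes tested rose and 19.5% fell, with a median of 0.01. In Rh30 1 rose and 4 fell, with a median of 0.02, against 15.3%, 13.2% and 0.03 over all genes. CTTN, the actin-binding protein cortactin, rose in both lines (log2 change 0.33 with adjusted p = 0.00344 in RD, 0.26 with adjusted p = 0.0270 in Rh30). In RD the others with the largest rise were CRK (0.30), an adaptor that binds Dok-7, and the kinases YES1 (0.25) and ABL1 (0.24). AGRN, which encodes agrin itself, fell in RD by 0.38 on the log2 scale (adjusted p = 0.0182) and had a change of -0.26 in Rh30 (adjusted p = 0.0652). ABL2, a kinase downstream of MuSK, fell in Rh30 from a mean of 16.2 to 8.69 FPKM (log2 change -0.83, adjusted p = 0.000400), followed by FYN (-0.37), CTNNB1 (-0.19) and CRKL (-0.12). The difference between lines passed for 6 of the 16, with 1 more positive in Rh30 (SRC, 0.42) and 5 more negative, the largest being ABL2 (-0.69), RAC1 (-0.32) and CTNNB1 (-0.20). Over all genes 14.4% were more positive and 13.4% more negative.

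The postsynaptic scaffold and synaptic basal lamina list has 23 genes. In RD 12 of 22 tested rose and 4 fell (median 0.18), against 21.6% and 19.5% of all genes. In Rh30 5 of 20 tested rose and 5 fell (median 0.04), against 15.3% and 13.2%. BCHE, butyrylcholinesterase, rose from 92.9, 80.5 and 84.8 FPKM to 206.5, 195.7 and 207.2 FPKM in RD, a log2 change of 1.23 (SE 0.06, adjusted p = 2.27e-05). It also rose in Rh30, by 0.40 (SE 0.06, adjusted p = 0.00383). DTNA, the dystrobrevin of the postsynaptic complex, rose in RD from a mean of 11.3 to 24.2 FPKM (log2 change 1.04, adjusted p = 3.95e-05) and had 0.24 in Rh30 (adjusted p = 0.0742). ACHE, the enzyme that breaks down acetylcholine at the synapse, rose in RD from 10.3 to 16.5 FPKM (0.63, adjusted p = 0.00253). In Rh30, ACHE had 2.46 and 1.96 FPKM with a log2 change of -0.24 (adjusted p = 0.324). DAG1, the dystroglycan gene, was singled out after its values were seen, so its own test is not given. Its means were 90.1 and 98.8 FPKM in RD and 87.4 and 58.3 FPKM in Rh30. The counts of this list cover all its tested genes, DAG1 included.

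Laminin chains of the list went both ways. LAMA2, the main alpha chain of muscle basal lamina, rose in both lines (0.84 in RD and 0.66 in Rh30). LAMA4, LAMA5 and LAMC1 fell in both lines: LAMA5, a chain of the synaptic basal lamina, by 0.31 in RD and by 1.10 in Rh30, LAMC1 by 0.31 and by 0.75, and LAMA4 by 0.22 and by 0.62. SNTB1, a syntrophin, fell as well, by 0.26 in RD and by 0.71 in Rh30. SYNE1, which anchors nuclei, rose in both lines (0.68 and 0.42), NID2, a basal lamina protein, rose in RD (0.71), and SCN4A, the muscle sodium channel, rose in Rh30 (0.54). NID2 averaged 0.204 FPKM with Scramble in Rh30 and stayed under 1 FPKM with KDM3A-sh2, and SCN4A had 0.0598 and 0.0516 FPKM in RD, too low for a test there. The difference between lines passed for 10 of the 19 genes tested in both lines, with 10 more negative in Rh30 (ACHE at -0.88 and BCHE at -0.83 the largest) and 0 more positive. Of all 15970 genes tested in both lines, 13.8% were more negative and 15.0% more positive. The difference for NID2 and SCN4A is not read as a result, since each reached the level needed for a test through 1 line alone.

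Among the 8 tested genes for assembly and glycosylation of the receptor, CANX had the largest log2 change in each line. CANX encodes calnexin, a chaperone that helps fold the subunits, and went from a mean of 465.0 to 192.4 FPKM in RD (log2 change -1.27, adjusted p = 1.63e-05) and from 353.1 to 184.3 FPKM in Rh30 (-0.93, adjusted p = 0.000205). Of the 10 genes, 8 were tested. In RD 1 rose (UNC50, 0.16) and 3 fell (CANX, ALG2 and HSPA5), while 21.6% of all genes tested rose and 19.5% fell. In Rh30 0 rose and 4 fell (those 3 and GFPT1, -0.38), against 15.3% and 13.2% of all genes. The median was -0.01 in RD and -0.11 in Rh30. ALG2, a glycosyltransferase, had -0.36 in RD and -0.28 in Rh30, and HSPA5, an endoplasmic reticulum chaperone, had -0.08 and -0.18. Of the 11 neuronal-type acetylcholine receptor subunit genes, 8 were too low in every comparison to test. CHRNA5 fell in RD from 16.0 to 8.06 FPKM (-0.91, adjusted p = 0.00113) and CHRNA9 from 9.49 to 6.48 FPKM (-0.50, adjusted p = 0.0239). In Rh30 CHRNA5 had -0.31 (adjusted p = 0.0604) and CHRNA9 was too low for a test within the line, at 0.260 and 1.25 FPKM.

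MYOD1 fell in RD and rose in Rh30, and MYOG did the same with a fall in RD just past the threshold. MYOD1, which encodes MyoD, had 132.0, 136.2 and 133.2 FPKM in RD Scramble and 106.9, 116.2 and 115.4 FPKM in RD KDM3A-sh2. In Rh30 it had 824.6, 793.9 and 690.5 FPKM with Scramble and 948.5, 909.9 and 933.0 FPKM with KDM3A-sh2. It therefore fell in RD (log2 change -0.24, SE 0.04, adjusted p = 0.00383) and rose in Rh30 (0.28, SE 0.07, adjusted p = 0.0222), with no overlap between groups. MYOG, myogenin, had means of 184.4 and 167.3 FPKM in RD (-0.14, adjusted p = 0.0490) and of 690.6 and 1016.9 FPKM in Rh30 (0.56, adjusted p = 0.000400). For the fall of MYOG in RD no other setting is given here. The signs of these 2 factors were thus opposite to those of CHRNB1, CHRND and MUSK in each line. Without knockdown both factors were far higher in Rh30 (2.51 for MYOD1 and 1.90 for MYOG on the log2 scale), where CHRNB1 and MUSK were lower and CHRNG, RAPSN, LRP4 and DOK7 higher. Any link between these factors and the members was not tested.

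Of the 19 E-box factors and partners, 4 of 16 tested rose and 7 fell in RD (median -0.11), against 21.6% and 19.5% of all genes. In Rh30 5 of 15 rose and 4 fell (median 0.09), against 15.3% and 13.2%. ID proteins bind E-box factors and keep them from DNA. ID2 fell in RD from 44.4 to 23.5 FPKM (-0.89, adjusted p = 0.000229) and had 0.19 in Rh30 (adjusted p = 0.163), and ID1 fell in RD and rose in Rh30 (-0.19 and 0.61, adjusted p = 0.0124 and 0.000657). ID3 rose in both (0.33 and 0.85), as did MEF2C, a partner of the myogenic factors (0.45 and 0.80). In RD HDAC9 (0.61), a deacetylase that acts on MEF2 factors, and MEF2A (0.28) rose, and TCF3 (-0.34), the E-protein partner of MyoD, fell. SIX4 and HDAC4 fell in both lines, by 0.41 and by 0.35 in RD and by 0.39 each in Rh30, and TCF12 (-0.12) fell in Rh30. Of the 15 tested in both lines, the difference passed for 7 more positive in Rh30, led by ID2 (1.08), ID1 (0.80) and MYOG (0.70), and for 2 more negative, TCF4 (-0.34) and MEF2A (-0.33), against 15.0% and 13.8% of all genes tested in both lines. HDAC9 was too low for a test in Rh30 (1.19 and 0.617 FPKM). Its difference between lines is not read as a result, because it enters that comparison through RD alone.

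**Figure D4:**
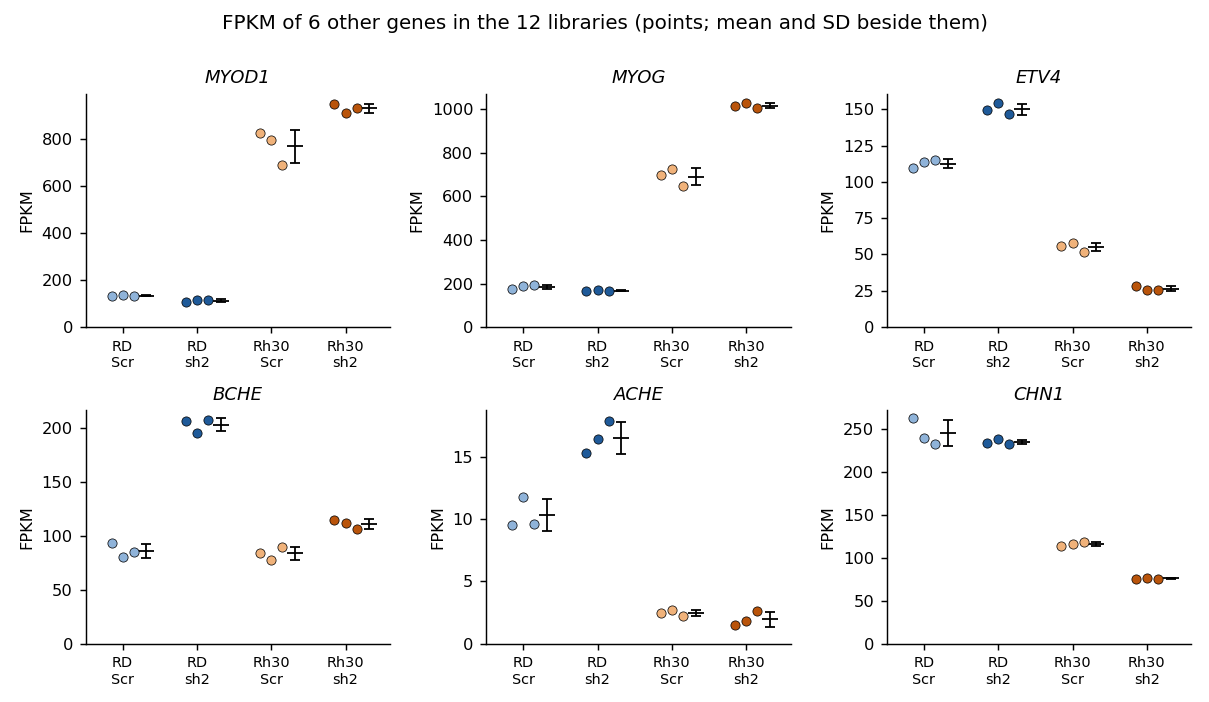
FPKM of 6 other genes in each library (points, 3 per group) with the group mean and SD, on axes that start at 0: the myogenic factors MYOD1 and MYOG, the ETS factor ETV4, the cholinesterases BCHE and ACHE, and CHN1, the neighbour of CHRNA1. MYOD1 and MYOG lie lower with KDM3A-sh2 in RD and higher in Rh30, the reverse of ETV4.

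ETS factors of the PEA3 group are known to act on synaptic promoters downstream of neuregulin and ERBB receptors. ETV4 rose in RD from a mean of 112.6 to 150.0 FPKM (log2 change 0.41, SE 0.04, adjusted p = 0.000237) and fell in Rh30 from 55.1 to 26.4 FPKM (-1.03, SE 0.07, adjusted p = 0.000197). ETV5 rose in RD (0.16, adjusted p = 0.0165) and fell in Rh30 (-0.43), and ETV1 fell in both lines (-0.23 in RD and -0.49 in Rh30). NRG1, the neuregulin ligand, rose in both lines. Its mean went from 21.5 to 30.5 FPKM in RD (0.49, adjusted p = 0.00164) and reached 12.2 FPKM from 5.91 FPKM in Rh30 (0.93, adjusted p = 0.000264). Its receptor ERBB3 fell in RD (-0.33, adjusted p = 0.0316) and rose in Rh30 (0.54, adjusted p = 0.0131), and ERBB2 rose in RD (0.46). ERBB4 averaged 0.717 and 1.59 FPKM in Rh30. It reached the mean of 1 FPKM needed for a test only through the KDM3A-sh2 libraries, so it is given as a description with no test. GABPA, which binds the N-box, rose in both lines (0.43 and 0.23), and EGR1, an immediate early factor, fell in both (-0.44 and -0.35). Of the 11 genes of this list, 5 of 9 tested rose and 3 fell in RD (median 0.16), against 21.6% and 19.5% of all genes. In Rh30, with ERBB4 left out, NRG1, ERBB3 and GABPA rose and ETV4, ETV5, ETV1 and EGR1 fell. The other tested genes of the list were not called there, while 15.3% of all genes rose and 13.2% fell. The difference between lines passed for 2 more positive in Rh30 (ERBB3, 0.86, and NRG1, 0.44) and 2 more negative (ETV4, -1.45, and ETV5, -0.59), against 14.4% and 13.4% of all genes.

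Most muscle lineage markers tested in RD fell. There 1 of 10 tested rose (DES, 0.23) and 7 fell, among them PAX3 (-0.91), MYH3, the embryonic myosin (-0.83), CKM, muscle creatine kinase (-0.78), and PAX7 (-0.78), against 21.6% and 19.5% of all genes. In Rh30 4 of 8 tested rose (MYOG, PAX3 at 0.47, CKM at 0.46 and MYOD1) and 1 fell (CDH15, a muscle cadherin, -0.25), against 15.3% and 13.2%. Reads of the PAX3-FOXO1 fusion of Rh30 can be counted to PAX3. Of the 8 tested in both lines, the difference passed for 6 more positive in Rh30, led by PAX3 (1.37), CKM (1.24) and MYH3 (0.78), and for 1 more negative (DES, -0.35), against 15.0% and 13.8% of all genes tested in both lines. PAX7 had 0.0679 and 0.0683 FPKM in Rh30. Its difference between lines is not read as a result, because it reached the level needed for a test through RD alone. The 12 markers summed to between 1279.1 and 1457.6 FPKM in RD Scramble and between 1340.0 and 1429.2 FPKM in RD KDM3A-sh2, which overlap. They summed to between 2064.5 and 2330.5 FPKM in Rh30 Scramble and between 2623.2 and 2666.8 FPKM in Rh30 KDM3A-sh2. The part of these markers in the changes of the receptor genes was not tested.

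**Figure D5:**
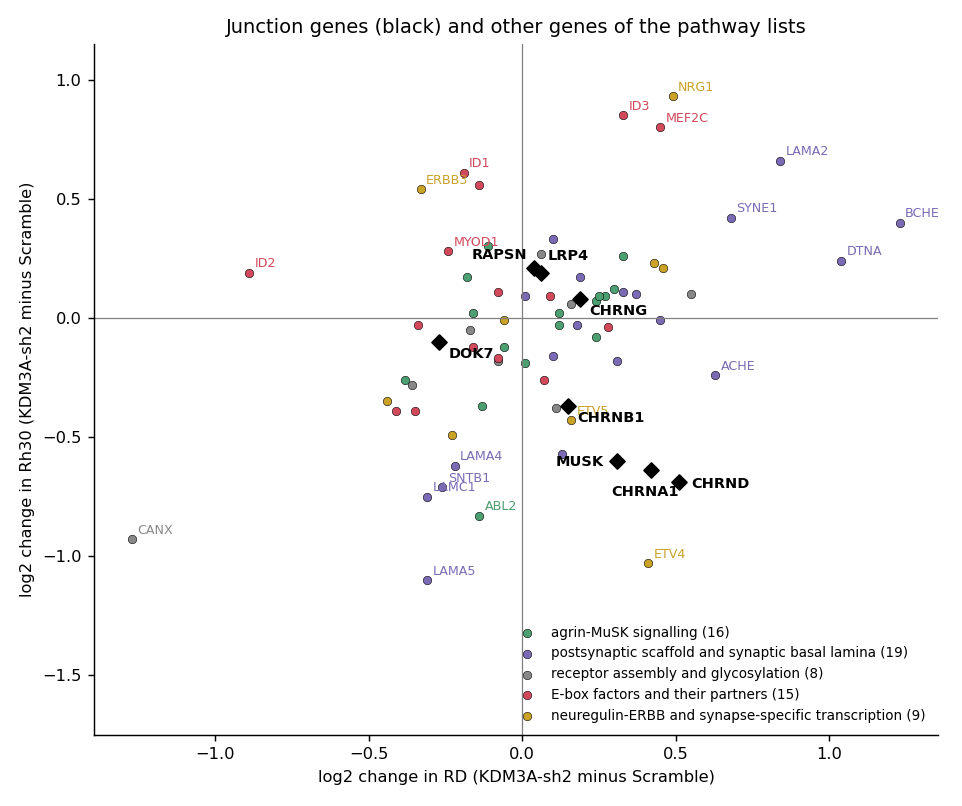
Log2 change with KDM3A-sh2 in RD (horizontal axis) and in Rh30 (vertical axis), on the log2(FPKM + 1) scale, for the junction genes (black diamonds) and the tested genes of 5 pathway lists (coloured points, with the number of genes plotted in each list). CHRNA1, CHRNB1, CHRND and MUSK lie in the lower right, with ETV4, ETV5, DAG1 and ACHE among others, where the value is above 0 in RD and below 0 in Rh30. MYOD1, ID1, ID2 and ERBB3 lie in the upper left.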

How the data were processed

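Polyadenylated RNA of 12 libraries was prepared with a directional mRNA kit. According to the submitters' processing notes, the tools were GSNAP, SAMtools and Cufflinks, with the GRCh38 build; the strand setting and the annotation release are not given in the sources used here. The authors deposited FPKM per gene, not counts and not on a log scale, so count models were not used and depth is known only relative to the other libraries. The 66095 entries of the table cover 65975 identifiers. Where an identifier was repeated (117 cases), its entry with the highest mean was used, leaving out 120 entries, and the value 999999999, present in 17 genes, was treated as missing. Within a group, libraries had a Pearson r of 0.9871 to 0.9888 across genes, and no pair shared more than 1.41% of its values.

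From these deposited values log2(FPKM + 1) was computed. limma 3.58.1 in R 4.3.3 (lmFit, eBayes with trend) was fitted over genes averaging 1 FPKM or more in the libraries compared, with two-sided p-values, Benjamini-Hochberg adjustment over all genes tested and a threshold of 0.05. The knockdown was compared within each line (6 libraries), the difference between lines as an interaction over 12 libraries (log2 change in Rh30 minus that in RD), and Rh30 with RD among Scramble libraries. A log2(FPKM + 1) change understates the change of low genes. The study's methods name a variance test on FPKM in R and no log scale, so a separate linear model for each gene on unlogged FPKM was run as an alternative. The scripts were tested on simulated data. pandas 2.3.3 and NumPy 2.4.6 under Python 3.11.15 handled the tables, and matplotlib 3.10.9 drew the figures. Positions are from GENCODE 29 and promoter windows from RefSeq (GRCh38.p14).

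The 9 members and the 12 gene lists were chosen with earlier results of these data known. The genes named were the 9 members, KDM3A, in each list up to 4 called genes per line and direction and up to 3 per direction for the difference between lines, the 5 genes most like CHRNA1, the nearest tested neighbours of CHRNA1 and of the CHRND and CHRNG pair, and genes that overlap a member. Some items that this rule selects are not reported here. Marker genes are also named where they lead their list in a line or are at or near 0, and DAG1 was named after its values were seen. Alternatives were the omission of the filter, a pseudocount of 0.1, a minimum of 10 FPKM in 1 library, rescaling to the same sum or by median ratios, the per-gene model, limma without trend, the replicate number as a block, repeated identifiers summed, and leaving out each library in turn.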

Additional observations from a re-analysis of the deposited data

Results flagged for a closer look

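In 3 tested members the change with KDM3A-sh2 differed between the lines: the log2 change in Rh30 minus that in RD was -1.20 for CHRND, -0.52 for CHRNB1 and -0.91 for MUSK, by the interaction term of limma. For CHRNA1 every RD library with KDM3A-sh2 lay above and every Rh30 library below its controls, a difference of -1.06 that was not tested because the gene was selected for it. KDM3A itself differed by 0.37, so the knockdown was not equal in the 2 lines.

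The same interaction passed for other genes named in the text that were tested in both lines. In agrin and MuSK signalling the values were -0.69 for ABL2, -0.32 for RAC1, -0.20 for CTNNB1, -0.18 for CRK, -0.18 for ABL1 and 0.42 for SRC. In the scaffold and basal lamina list they were -0.88 for ACHE, -0.83 for BCHE, -0.79 for DTNA, -0.79 for LAMA5, -0.46 for SNTB1 and -0.45 for LAMC1. In assembly and glycosylation they were 0.34 for CANX and -0.49 for GFPT1, and among neuronal-type subunits 0.60 for CHRNA5.

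Among E-box factors and partners the difference was 1.08 for ID2, 0.80 for ID1, 0.70 for MYOG, 0.53 for ID3, 0.52 for MYOD1, 0.35 for MEF2C, 0.30 for TCF3, -0.33 for MEF2A and -0.34 for TCF4. In the neuregulin and ETS list it was -1.45 for ETV4, -0.59 for ETV5, 0.86 for ERBB3 and 0.44 for NRG1. Among muscle lineage markers it was 1.37 for PAX3, 1.24 for CKM, 0.78 for MYH3, 0.35 for CDH15 and -0.35 for DES. Near or over the members it was -0.54 for CHN1, 0.14 for H3F3AP4 and -0.51 for MINK1.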

How the results depend on the processing

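No value of the 8 members other than CHRNE changed sign under any alternative run. The differences between lines of CHRNB1, CHRND and MUSK passed in all 21 alternatives, and in Rh30 CHRND and CHRNB1 passed in all 15. Leaving out 1 library each in turn gave 0.17 to 0.24 for CHRNG in RD, -0.73 to -0.49 for MUSK and 0.17 to 0.24 for RAPSN in Rh30, and 0.30 to 0.50 for DOK7 between lines with Scramble, with calls lost in part of these fits. The members called in Rh30 numbered 2 to 4 and all genes called there 3215 to 4071, lowest without KDM3A-sh2 replicate 1. A group left with 2 libraries shares the spread of the others.

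With a separate model per gene on unlogged FPKM, 2 members were called in RD (CHRNB1 and CHRND) and 2 in Rh30 (the same genes). The differences that did not pass there were 1.98 FPKM for CHRNG and 5.98 FPKM for MUSK in RD, -3.79 FPKM for MUSK and 21.13 FPKM for RAPSN in Rh30, and 3.30 FPKM for DOK7 between lines with Scramble. Without a filter on low values CHRNG in RD (0.19), MUSK in Rh30 (-0.60) and RAPSN in Rh30 (0.21) did not pass, and CHRNE, left out otherwise, was called higher in Rh30 (0.15) and for the difference between lines (0.26). Nor did CHRNG in RD (0.19) with at least 10 FPKM in 1 library or RAPSN in Rh30 (0.21) without the trend pass. The replicate numbers of the labels did not pair the libraries: deviations of same-numbered libraries correlated from -0.074 to 0.056. With the replicate number as a block, 2 members were called in RD (CHRND and MUSK) and 2 in Rh30 (CHRNB1 and CHRND), and CHRNB1 (0.15, adjusted p = 0.0503 by limma) and CHRNG (0.19) in RD and MUSK (-0.60) and RAPSN (0.21) in Rh30 did not pass. The block gave 6259 genes called in RD, 3421 in Rh30 and 3993 for the difference. For each of these losses the cause was not tested.

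Rescaling to the same sum moved the median of all genes by -0.09 between lines with Scramble. There CHRNA1 had 0.45 in RD, -1.12 as the difference between lines and -1.34 between lines with Scramble (-1.18 with median ratios), CHRND passed between lines with Scramble (-0.19, adjusted p = 0.00577 by limma) and DOK7 did not (0.30). CHRNE stayed under 1 FPKM, and whether depth limits its values was not tested. Each line stands for 1 subtype and 1 shRNA for the knockdown.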
